A study of Saccharomyces cerevisiae with 24 samples.

Results

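The step from 10 to 30 min of nitrogen was examined in a hypoxic time course of the budding yeast Saccharomyces cerevisiae. The 30 min libraries of courses 1, 2 and 3 were set against the 10 min libraries with the same course number, so that 6 of the 24 libraries of the series make the comparison. All libraries came from strain yMH914, an S288C derivative with a repaired HAP1 gene (MATa ura3Δ0 his3Δ200 leu2Δ0 lys2-128δ HAP1), and both groups carry all of these alleles. Cells grew in YPD at 30°, were sampled in air at 0 min, were then diluted into medium sparged with 100% N2, and received neither ergosterol nor Tween. Polyadenylated RNA was sequenced, and the deposited values are read counts for 7140 annotated features. The submitters describe the 3 courses as biological replicates, without saying how the cultures were kept apart, and p-values here measure the spread between these libraries. The 8 times of the series were 0, 5 and 10 min, then 30 and 60 min, and last 120, 180 and 240 min. Values are given in the order of courses 1, 2 and 3.

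Molecular oxygen is a substrate for the synthesis of heme, of ergosterol and of unsaturated fatty acids in yeast, and it is the last electron acceptor of respiration. Heme carries the oxygen signal to the activators Hap1 and Hap2/3/4/5, and the Hap1 target Rox1 represses hypoxic genes while heme is present. Sterol depletion acts through Upc2 and Ecm22. A separate program, the environmental stress response, raises genes under the activators Msn2 and Msn4 and lowers genes of ribosome synthesis in many kinds of stress, often for a short time.

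The 6 libraries held 8172905 to 11145185 counted reads. After a filter on low counts, 6262 features were tested. A gene was called when its Benjamini-Hochberg adjusted p in edgeR's quasi-likelihood test was under 0.05 and its fold change was at least 2, which is 1 on the log2 scale. Levels are counts per 1000000 (CPM) with TMM scaling, which do not take gene length into account, and the error of a log2 fold change is its standard error. In the libraries of courses 2 and 3, alignments that fit several places numbered 103.6 and 113.5 per 100 counted reads at 30 min, against 74.2 and 65.0 per 100 at 10 min. These alignments were not counted, and no such number was used for course 1. Libraries of course 1 stood apart from those of courses 2 and 3: the chi-square per degree of freedom between libraries of one time was 267 to 308 against course 1 and 40.2 to 55.0 between courses 2 and 3. Of the 3 genes that the genotype lists as deleted, each (HIS3, LEU2 and URA3) stayed at 2 counts or fewer in the libraries.

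At 30 min 176 features were called against 10 min, or 2.81% of those tested. Of these, 103 were higher (1.64% of those tested) and 73 were lower (1.17%). With total-count scaling the split was 126 higher and 57 lower, so that the higher genes made 68.9% of the calls in place of 58.5%. The ratio of 30 to 10 min had the same sign in the 3 courses for 172 of the 176. These features were selected in the same libraries, which favours a common sign, and the share over all features is not given here. The 30 and 10 min groups did not overlap for 130 of the 176, and for 11.8% of all features tested. Without course 2 the calls numbered 45, of which 41 were among the 176, and without the course term in the model they numbered 52, all among the 176. Without course 2 they were 19 higher and 26 lower. An adjusted p under 0.05 at any fold was reached by 606 features, 242 higher and 364 lower, so that the higher features made 39.9% of them and the balance turned round.

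The plot of the 24 largest changes shows the 12 largest rises and the 12 largest falls among genes with a standard name, a mean of at least 10 CPM and the same sign in every course. The rises were in IZH4, HSP12, HAB1, NQM1, TKL2, EGO4, TDH1, HXT5, TIR1, TSA2, ANB1 and PAI3. The falls were in YHB1, CYC1, NDE1, BTN2, FET3, COX26, SIT1, DBP2, RMT2, HSP30, GPX2 and PRM7.

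**Figure D1:**
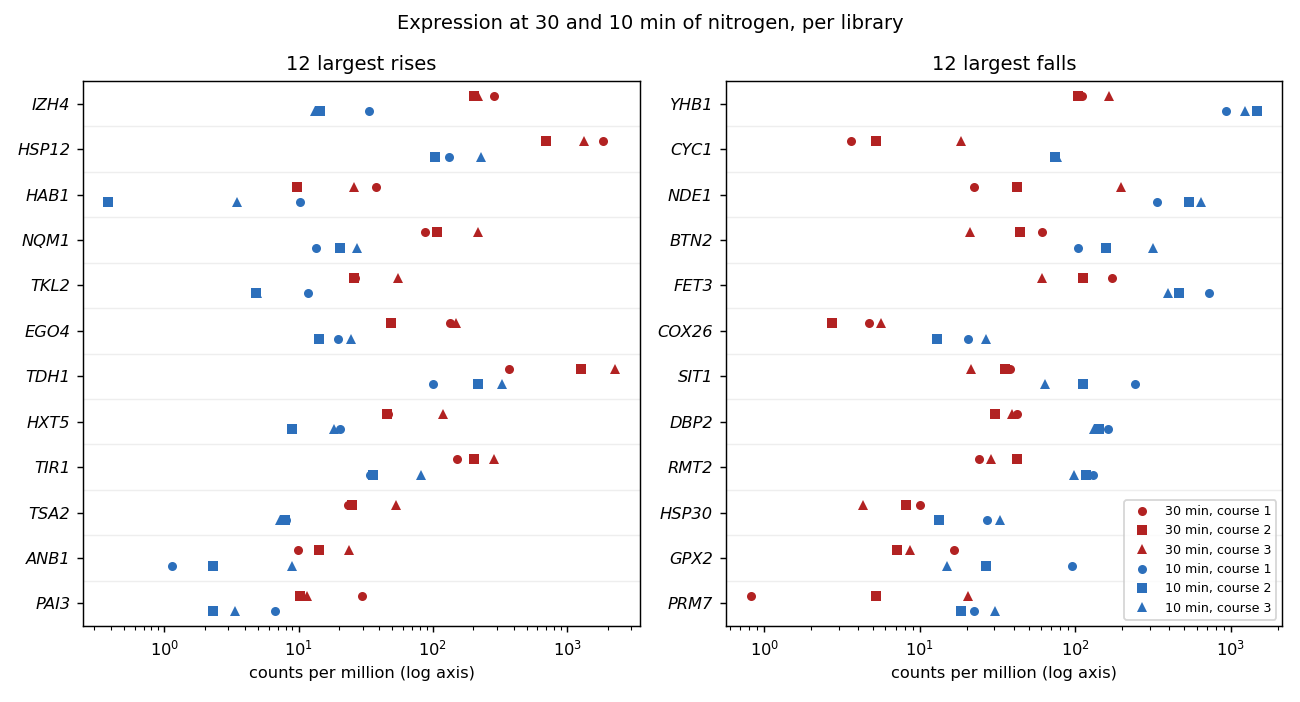
CPM (log axis) of the 12 genes with the largest rises (left) and the 12 with the largest falls (right), with 30 min libraries in red above 10 min libraries in blue and 1 symbol for each course. The 3 libraries of YHB1 lie between 104 and 165 CPM at 30 min and between 923 and 1471 CPM at 10 min, while the 2 groups of HAB1, GPX2 and PRM7 overlap.

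IZH4, a membrane protein of zinc and sterol homeostasis, rose the most among these genes. It had 284, 202 and 216 CPM at 30 min, against 33.4, 14.5 and 13.2 CPM at 10 min (log2 fold change 3.54 ± 0.52, adjusted p = 0.000174). All 3 libraries of 30 min were far above those of 10 min. Its relatives IZH1 and IZH2 were called as well. IZH1 had 101, 84.5 and 108 CPM at 30 min, against 50.6, 20.1 and 19.7 CPM at 10 min (log2 fold change 1.75 ± 0.36, adjusted p = 0.00314). IZH2 had 195, 109 and 88.2 CPM at 30 min, against 87.8, 38.7 and 43.4 CPM at 10 min (log2 fold change 1.22 ± 0.29, adjusted p = 0.00792), and its 30 min value of course 3 was close to its 10 min value of course 1. These 2 were the calls among the 16 members of the zinc regulon, against 1.64% of all features called higher. The zinc regulon had a median log2 fold change of 0.03. At 0, 5, 10 and 30 min the means of IZH1 were 286, 81.3, 30.15 and 97.8 CPM. Those of IZH2 were 158, 87.3, 56.6 and 131 CPM. Both means at 30 min were below those at 0 min, although IZH2 in course 1 was higher at 30 min. At 240 min the means of IZH1 and IZH2 were 72.9 and 457 CPM.

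HEM13 encodes coproporphyrinogen III oxidase, an enzyme of heme synthesis that uses oxygen. HEM13 had 219.5, 344 and 258 CPM at 30 min, against 45.1, 82.2 and 111 CPM at 10 min (log2 fold change 1.86 ± 0.21, adjusted p = 9.82e-06), and the groups did not overlap. It was the only call among the 12 genes of heme synthesis and breakdown, against 1.64% of all features called higher, and their median was 0.09. TIR1, a cell wall mannoprotein of hypoxic cells, had 150.1, 203 and 283 CPM at 30 min, against 34.3, 35.8 and 81.2 CPM at 10 min (log2 fold change 2.10 ± 0.29, adjusted p = 8.56e-05), and the lowest 30 min library was above the highest 10 min library. TIP1, a related mannoprotein of the wall, had 624, 1250 and 1570 CPM at 30 min, against 236, 442 and 517 CPM at 10 min (log2 fold change 1.51 ± 0.25, adjusted p = 0.000492), and its groups did not overlap. PIR3, another wall protein, was called with 10.9, 18.9 and 74.1 CPM at 30 min, against 5.3, 19.8 and 14.1 CPM at 10 min (log2 fold change 1.29 ± 0.41, adjusted p = 0.0459), but its ratio ran the other way in course 2. TIP1 and PIR3 were the calls among 29 aerobic cell wall genes, against 1.64% of all features called higher, and the median of the list was 0.06.

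The upstream sequences of HEM13 and TIR1 are shown because these genes rose in every course and hold matches to the sterol response motif TCGTTTA of Upc2 and Ecm22 and to the Rox1 motif ATTGTT. Each is a stretch of 300 bases of the R64 genome, and in all stretches shown capitals mark matches on either strand to the motifs of Msn2 and Msn4, Dot6 and Tod6, Stb3, Rox1, Hap2/3/4/5 and Hap1 and to TCGTTTA. Matches to the other motifs searched are in lower case. The stretch of HEM13 (chrIV:546197-546496, plus strand, 445 to 146 bases before the coding start) also holds AGGGG, the stress response element (STRE) of Msn2 and Msn4, and CCAAT, the Hap2/3/4/5 motif. The stretch of TIR1 (chrV:174848-175147, plus strand, 400 to 101 bases before the coding start) also holds CGGNNNTA, part of the Hap1 motif.
HEM13: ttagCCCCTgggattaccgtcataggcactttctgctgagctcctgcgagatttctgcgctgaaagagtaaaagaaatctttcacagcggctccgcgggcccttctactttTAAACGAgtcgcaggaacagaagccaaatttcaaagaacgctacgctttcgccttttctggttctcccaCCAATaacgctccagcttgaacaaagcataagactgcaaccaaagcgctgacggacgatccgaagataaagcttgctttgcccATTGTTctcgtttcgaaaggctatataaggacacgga
TIR1: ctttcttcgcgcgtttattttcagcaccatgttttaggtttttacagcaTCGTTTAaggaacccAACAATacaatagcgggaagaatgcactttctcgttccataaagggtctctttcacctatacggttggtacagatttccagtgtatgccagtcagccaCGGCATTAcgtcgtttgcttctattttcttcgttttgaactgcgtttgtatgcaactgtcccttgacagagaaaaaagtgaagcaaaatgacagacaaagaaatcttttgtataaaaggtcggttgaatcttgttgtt

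The other 5 DAN/TIR cell wall genes, which encode mannoproteins of anaerobic cells, were not called. DAN1 had 1.13, 4.96 and 5.24 CPM at 30 min, against 1.42, 3.74 and 32.7 CPM at 10 min (adjusted p = 0.174), so that a single 10 min library stood above the rest. DAN4 had 14.3, 29.7 and 69.8 CPM at 30 min, against 14.2, 26.7 and 32.3 CPM at 10 min (adjusted p = 0.266). The log2 fold changes of TIR2, TIR3 and TIR4 were 0.36 ± 0.27, 0.04 ± 0.29 and -0.37 ± 0.28, with adjusted p of 0.492, 0.961 and 0.48. TIR2 was higher and TIR4 lower at 30 min in every course, and TIR3 was lower in course 1 and higher in courses 2 and 3. None of the 3 passed the test. The median log2 ratio of the list to 10 min was 0.13 at 30 min, 3.54 at 120 min and 6.12 at 240 min.

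Among genes of lipids, FAA4, MGA2, HES1 and SUT1 rose. FAA4, a long-chain fatty acyl-CoA synthetase, had 503, 855 and 549 CPM at 30 min, against 247, 200 and 138 CPM at 10 min (log2 fold change 1.62 ± 0.28, adjusted p = 0.000746). MGA2, a membrane-bound activator of the fatty acid desaturase gene OLE1, had 319, 408 and 277 CPM at 30 min, against 130.1, 117 and 91.6 CPM at 10 min (log2 fold change 1.54 ± 0.23, adjusted p = 0.000214). The groups of both genes were well apart. FAA4 and MGA2 were the calls among 15 genes of fatty acid synthesis and desaturation, with a median of 0.23, against 1.64% of all features called higher. HES1, an oxysterol-binding protein, had 24.4, 27 and 18.1 CPM at 30 min, against 3.69, 6.72 and 9.22 CPM at 10 min (log2 fold change 1.85 ± 0.30, adjusted p = 0.000442), and SUT1, a transcription factor of sterol uptake, had 50.4, 56.4 and 86.5 CPM at 30 min, against 25.5, 30.3 and 32.6 CPM at 10 min (log2 fold change 1.13 ± 0.22, adjusted p = 0.00172). Neither gene had overlapping groups. They were the calls among 17 genes of sterol uptake and esterification, with a median of 0.09, against 1.64% of all features called higher. The calls of FAA4, MGA2, HES1 and SUT1 were lost without course 2, and that of SUT1 also without course 3. All of them held without the course term.

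Of 26 ergosterol synthesis genes tested, 1 was lower (against 1.17% of all features) and none was higher, and the median was -0.24 with 19 negative values. The gene called was CYB5, which encodes cytochrome b5, an electron donor of sterol and lipid synthesis. CYB5 had 10.9, 7.58 and 4.65 CPM at 30 min, against 28.1, 18.1 and 22.6 CPM at 10 min (log2 fold change -1.56 ± 0.34, adjusted p = 0.00477), and its groups did not overlap. Its call was lost without course 2.

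Of 17 regulators of the oxygen response tested, MGA2 and SUT1 were called higher, against 1.64% of all features, and the median was -0.15. Without course 2 none of the 17 was called. HAP1 and UPC2 had adjusted p of 0.00185 and 0.0079 but did not reach 2-fold. HAP1 had 184, 281 and 257 CPM at 30 min, against 104, 137 and 163 CPM at 10 min (log2 fold change 0.84 ± 0.16), and UPC2 had 59.7, 102 and 64.3 CPM at 30 min, against 27.5, 51 and 60.3 CPM at 10 min (log2 fold change 0.75 ± 0.18). Both were above their 10 min value in every course. MOT3, a repressor of hypoxic genes, had 43.8, 32.2 and 48.1 CPM at 30 min, against 76.9, 74 and 73.2 CPM at 10 min (log2 fold change -0.85 ± 0.30, adjusted p = 0.0741), lower in every course but not past the threshold. ROX1 had 16.4, 18.2 and 53.4 CPM at 30 min, against 26.1, 37.6 and 38.8 CPM at 10 min (adjusted p = 0.834), and it was lower in courses 1 and 2 and higher in course 3.

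The subunits of the Hap2/3/4/5 activator had log2 fold changes of -0.29 ± 0.35 for HAP2, -0.29 ± 0.22 for HAP3, -0.48 ± 0.41 for HAP4 and -0.10 ± 0.27 for HAP5, with adjusted p from 0.477 to 0.884. The corepressor genes TUP1 and CYC8 had -0.15 ± 0.13 and -0.37 ± 0.16. The other members of the list gave 0.04 ± 0.18 for ECM22, 0.06 ± 0.16 for SPT23, 0.54 ± 0.35 for ERT1, -0.32 ± 0.15 for HOG1 and -0.20 ± 0.15 for IXR1. None of these was past the threshold, with adjusted p of 0.172 or more.

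The respiratory chain was the list with the lowest median. Of 26 respiratory chain genes tested, 9 were lower (against 1.17% of all features), 1 was higher (against 1.64%) and 16 were not called. Without the course term 1 of the 26 was called, and without course 2 also 1. The median was -0.86, against -0.0040 over all features, and 24 were negative. Summed levels of the list were 1603 to 2374 CPM at 30 min, against 2533 to 4920 CPM at 10 min, so that the ranges did not meet. In courses 1, 2 and 3 the median of the list was -0.51, -0.94 and -1.16.

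CYC1, which encodes the main cytochrome c, had 3.6, 5.25 and 18.5 CPM at 30 min, against 74.2, 73.5 and 76 CPM at 10 min (log2 fold change -3.13 ± 0.61, adjusted p = 0.00185). The 10 min libraries were nearly equal, while the 30 min libraries spread widely and stayed below them. NDE1, the external NADH dehydrogenase of mitochondria, had 22.2, 42.4 and 196 CPM at 30 min, against 336, 539.6 and 640.4 CPM at 10 min (log2 fold change -2.91 ± 0.52, adjusted p = 0.000991), with the smallest difference in course 3. The only higher gene of the list was its paralog NDE2, with 14.5, 18.9 and 34.7 CPM at 30 min, against 9.09, 5.47 and 7.12 CPM at 10 min (log2 fold change 1.68 ± 0.43, adjusted p = 0.0144). The list leaves out COX5B, the hypoxic subunit gene of cytochrome c oxidase, which was called higher and is given with the isoform pairs. COX12 and COX13 are subunits of cytochrome c oxidase. COX12 had 27.5, 16.6 and 25.4 CPM at 30 min, against 70.3, 72.1 and 75.3 CPM at 10 min (log2 fold change -1.67 ± 0.20, adjusted p = 2.25e-05). COX13 had 55.7, 21.8 and 18.6 CPM at 30 min, against 101, 54.7 and 54.7 CPM at 10 min (log2 fold change -1.22 ± 0.24, adjusted p = 0.00195), and only its course 1 value at 30 min was above a 10 min value. COX26, a small protein of the respiratory supercomplexes, had 4.73, 2.72 and 5.6 CPM at 30 min, against 20.4, 12.9 and 26.6 CPM at 10 min (log2 fold change -2.19 ± 0.62, adjusted p = 0.0257). It was lower in every course, at a low level. Its means were 2.42, 28.9, 19.9 and 4.35 CPM at 0, 5, 10 and 30 min. The mean at 30 min was thus above that at 0 min. The calls of CYC1, NDE1, COX13 and COX26 were lost without course 2 and without the course term, and that of COX12 held in both.

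No gene was called in 3 other lists of mitochondrial genes. None of 16 ATP synthase genes was called, with a median of -0.40 and 13 negative. ATP7 had the smallest p among them, at 111, 99.7 and 102 CPM at 30 min, against 146, 214 and 251 CPM at 10 min (log2 fold change -0.95 ± 0.15, adjusted p = 0.000281), which is under 2-fold. None of 12 TCA cycle genes was called, and LSC2, a subunit of succinyl-CoA ligase, had a positive log2 fold change of 0.68 ± 0.20 (adjusted p = 0.0283). None of 71 mitochondrial ribosomal proteins was called, with a median of 0.21 and 63 positive. MRPL49, with the smallest p among them, had 65.8, 32.5 and 40.6 CPM at 30 min, against 47, 13.4 and 17.7 CPM at 10 min (log2 fold change 0.98 ± 0.29, adjusted p = 0.0363), higher in every course and under 2-fold.

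YHB1, the flavohemoglobin that destroys nitric oxide with oxygen, gave the largest fall among named genes and the smallest adjusted p. It had 110.2, 104 and 165 CPM at 30 min, against 923, 1471 and 1233 CPM at 10 min (log2 fold change -3.23 ± 0.22, adjusted p = 4.32e-09). Each 30 min library was far below its 10 min partner, and the call held under each of the 10 alternative settings. Among these, the setting with no fold minimum keeps every call by construction. Its upstream stretch (chrVII:959504-959803, plus strand, 400 to 101 bases before the coding start) is shown because the gene had the smallest adjusted p of those named. It holds ATTGTT and CGGNNNTA.
YHB1: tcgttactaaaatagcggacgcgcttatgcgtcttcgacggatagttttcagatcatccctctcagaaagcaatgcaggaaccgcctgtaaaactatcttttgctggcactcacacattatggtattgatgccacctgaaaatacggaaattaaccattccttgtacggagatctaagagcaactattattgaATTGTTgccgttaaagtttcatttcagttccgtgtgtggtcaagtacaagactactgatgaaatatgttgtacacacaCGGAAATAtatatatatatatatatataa

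CYC1 and ANB1 are neighbours on chromosome X that are read away from each other, with 953 bases between their coding starts, and they moved in opposite directions. ANB1 encodes the translation factor eIF5A of hypoxic cells. ANB1 had 9.86, 14.2 and 23.7 CPM at 30 min, against 1.14, 2.3 and 8.87 CPM at 10 min (log2 fold change 2.06 ± 0.47, adjusted p = 0.00639), still a low level, and CYC1 fell as given above. The upstream stretches of both genes are shown, chosen after their values were seen. That of ANB1 (chrX:525545-525844, minus strand, 463 to 164 bases before the coding start) holds 4 copies of ATTGTT and 2 runs of AAAATTTT, which hold AAATTTT on both strands. That of CYC1 (chrX:525861-526160, plus strand, 474 to 175 bases before the coding start) holds 1 match to CGGNNNTA, as its reverse complement.
ANB1: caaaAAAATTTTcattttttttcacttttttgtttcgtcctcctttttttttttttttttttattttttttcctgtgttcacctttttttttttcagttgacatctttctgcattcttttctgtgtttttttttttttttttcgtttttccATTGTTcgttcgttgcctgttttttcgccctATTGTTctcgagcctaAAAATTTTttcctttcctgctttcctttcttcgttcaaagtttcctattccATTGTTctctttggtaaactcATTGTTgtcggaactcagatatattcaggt
CYC1: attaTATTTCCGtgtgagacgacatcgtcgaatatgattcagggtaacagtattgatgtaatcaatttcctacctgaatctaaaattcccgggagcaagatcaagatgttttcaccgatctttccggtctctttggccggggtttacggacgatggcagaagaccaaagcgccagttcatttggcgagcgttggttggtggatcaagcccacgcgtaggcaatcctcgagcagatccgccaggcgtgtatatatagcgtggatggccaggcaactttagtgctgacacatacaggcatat

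Several pairs of isoforms are known to be exchanged between air and hypoxia. Within each library, the log2 ratio of the hypoxic to the aerobic gene went up from 10 to 30 min in the 3 courses for COX5B over COX5A, CYC7 over CYC1, ANB1 over HYP2, AAC3 over PET9 and HMG2 over HMG1. The changes of the ratio were 3.53, 3.49 and 2.43 for ANB1 over HYP2, and 2.85, 1.51 and 1.41 for AAC3 over PET9. For CYC7 over CYC1 they were 3.97, 2.43 and 1.23. These ratios do not depend on the scaling of libraries, but near-identical pairs share reads that were not counted.

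The member that was called differed between the pairs. For COX5B and COX5A, subunits of cytochrome c oxidase, the aerobic gene was low throughout. COX5B had 371, 220.5 and 200.1 CPM at 30 min, against 116, 77.2 and 116 CPM at 10 min (log2 fold change 1.30 ± 0.26, adjusted p = 0.00218). COX5A had 9.66, 5.93 and 0 CPM at 30 min, against 17.4, 16.1 and 15.5 CPM at 10 min (adjusted p = 0.134), with no read in the 30 min library of course 3, so that the change of 5.79 in that course rests on the 0.5 CPM added to each value. HYP2, the aerobic eIF5A gene, had 2286, 2431 and 2627 CPM at 30 min, against 4155, 5209 and 5467 CPM at 10 min (log2 fold change -1.01 ± 0.13, adjusted p = 2.83e-05), and it fell past the threshold by a small margin. CYC7 itself had 37.3, 15.9 and 56.6 CPM at 30 min, against 43.5, 38.9 and 97.8 CPM at 10 min (adjusted p = 0.558), and CYC1 was the called member of that pair.

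AAC3 and PET9 encode ADP/ATP carriers of mitochondria. AAC3 had 31.1, 25.3 and 25.5 CPM at 30 min, against 6.82, 14.8 and 18.2 CPM at 10 min (log2 fold change 1.04 ± 0.31, adjusted p = 0.0363), and PET9 had 242, 545 and 687 CPM at 30 min, against 402, 918 and 1312 CPM at 10 min (log2 fold change -0.83 ± 0.23, adjusted p = 0.0211), below 2-fold. The log2 fold changes of HMG2 and HMG1, the HMG-CoA reductases, were 0.46 ± 0.20 and -0.68 ± 0.27, with adjusted p of 0.166 and 0.124. Neither was called. The ratio of the peroxiredoxin genes TSA2 to TSA1 changed by 2.58, 2.42 and 3.34. TSA2 had 23.2, 25 and 53.1 CPM at 30 min, against 8.05, 7.97 and 7.24 CPM at 10 min (log2 fold change 2.08 ± 0.33, adjusted p = 0.000358), and its groups did not overlap. TSA1 had 539.6, 950.1 and 952 CPM at 30 min, against 1162, 1694 and 1395 CPM at 10 min (log2 fold change -0.83 ± 0.19, adjusted p = 0.00788).

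Pairs of sugar metabolism behaved differently among themselves. The ratio of the hexokinase genes HXK1 to HXK2 changed by 1.95, 1.31 and 1.37, and HXK1 was called (log2 fold change 1.06 ± 0.33, adjusted p = 0.0461) while HXK2 was not (-0.37 ± 0.19). The ratio of ADH5 to ADH1, alcohol dehydrogenases, changed by 0.87, 0.94 and 1.34. The ratio of GPD1 to GPD2, glycerol-3-phosphate dehydrogenases, went down by 0.33, 1.28 and 1.53. GPD2 had 399, 798 and 661 CPM at 30 min, against 325, 361 and 311 CPM at 10 min (log2 fold change 0.84 ± 0.16, adjusted p = 0.00124), and GPD1 had 451, 1248 and 1352 CPM at 30 min, against 462, 1371 and 1838 CPM at 10 min (adjusted p = 0.726). The glycogen synthase genes GSY1 and GSY2 showed no common direction, with ratio changes of 0.56, 0.0035 and -0.73.

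**Figure D2:**
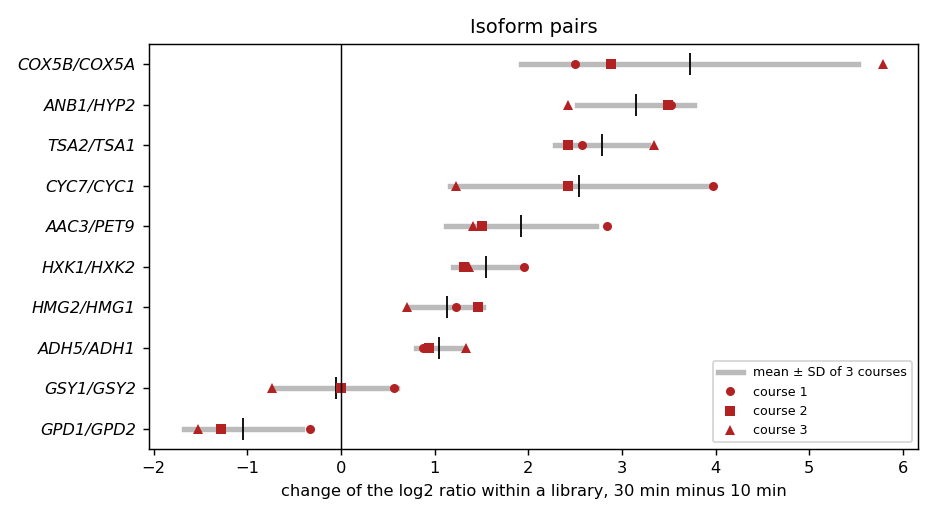
Change of the log2 ratio of 2 genes within a library, 30 min minus 10 min, for 10 isoform pairs, with 1 red symbol for each course, the mean as a tick and ± 1 SD as a grey bar. The 8 upper pairs lie above 0 in each course, GPD1/GPD2 lies below 0 in each course, and GSY1/GSY2 lies on both sides.

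Some genes of the general stress response rose. Of 65 tested, 18 were higher, none was lower and 47 were not called, against 1.64% of all features called higher. The calls numbered 4 without the course term and 1 without course 2. The median was 0.56, and 56 of the 65 were positive. In the courses the median was 0.80, 0.54 and 0.43. Summed levels of the list overlapped between times, with 18410 to 28150 CPM at 30 min and 10470 to 28090 CPM at 10 min.

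HSP12, a small membrane-stabilizing heat shock protein, had 1855, 698 and 1343 CPM at 30 min, against 131, 104 and 229 CPM at 10 min (log2 fold change 2.88 ± 0.50, adjusted p = 0.000686). The 30 min libraries were all above the 10 min libraries. HSP12 lost its call without course 2 and without the course term. GCY1, an aldo-keto reductase, had 48.3, 99.8 and 180.3 CPM at 30 min, against 23.9, 43.4 and 53.1 CPM at 10 min (log2 fold change 1.38 ± 0.24, adjusted p = 0.000769), and TFS1, an inhibitor of carboxypeptidase Y, had 254, 257 and 446 CPM at 30 min, against 62.6, 82.6 and 176 CPM at 10 min (log2 fold change 1.61 ± 0.28, adjusted p = 0.000786). NQM1, a transaldolase isozyme, had 87.4, 106 and 218 CPM at 30 min, against 13.5, 20.4 and 27.4 CPM at 10 min (log2 fold change 2.72 ± 0.33, adjusted p = 2.74e-05), and TKL2, the minor transketolase, had 26.5, 25.9 and 55.2 CPM at 30 min, against 11.7, 4.8 and 4.9 CPM at 10 min (log2 fold change 2.55 ± 0.45, adjusted p = 0.000806). The 2 enzymes belong to the pentose phosphate pathway, and the groups of neither overlapped. HXT5, a hexose transporter of slowly growing cells, had 46.2, 45.8 and 119 CPM at 30 min, against 20.4, 8.93 and 18.3 CPM at 10 min (log2 fold change 2.32 ± 0.50, adjusted p = 0.00413), and all its 30 min libraries were above those of 10 min.

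HAB1 had 37.5, 9.72 and 25.9 CPM at 30 min, against 10.2, 0.384 and 3.5 CPM at 10 min (log2 fold change 2.86 ± 0.63, adjusted p = 0.00491), with fewer than 1 CPM in 1 library. EGO4 had 133, 48.8 and 148 CPM at 30 min, against 19.5, 14.2 and 24.6 CPM at 10 min (log2 fold change 2.43 ± 0.42, adjusted p = 0.000652), and its call held under each of the 10 alternative settings. PAI3, the inhibitor of proteinase A, had 29.8, 10.2 and 11.6 CPM at 30 min, against 6.72, 2.3 and 3.38 CPM at 10 min (log2 fold change 2.02 ± 0.52, adjusted p = 0.0134). GTT1, a glutathione transferase, had 72.1, 81.2 and 93 CPM at 30 min, against 20.9, 19.1 and 37.7 CPM at 10 min (log2 fold change 1.70 ± 0.21, adjusted p = 2.77e-05), and its groups did not overlap. TSA2 and GTT1 were the higher calls, and YHB1 and GPX2 the lower calls, among 35 genes of oxidative stress defence with a median of 0.03. Of all features, 1.64% were called higher and 1.17% lower. GPX2, a glutathione peroxidase, had 16.6, 7.09 and 8.7 CPM at 30 min, against 95.1, 26.7 and 14.9 CPM at 10 min (log2 fold change -1.81 ± 0.35, adjusted p = 0.00185).

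The upstream stretch of HSP12 (chrVI:106817-107116, plus strand, 439 to 140 bases before the coding start), chosen after its values were seen, is shown for its 5 copies of AGGGG, 3 of them on the strand of the gene and 2 as CCCCT.
HSP12: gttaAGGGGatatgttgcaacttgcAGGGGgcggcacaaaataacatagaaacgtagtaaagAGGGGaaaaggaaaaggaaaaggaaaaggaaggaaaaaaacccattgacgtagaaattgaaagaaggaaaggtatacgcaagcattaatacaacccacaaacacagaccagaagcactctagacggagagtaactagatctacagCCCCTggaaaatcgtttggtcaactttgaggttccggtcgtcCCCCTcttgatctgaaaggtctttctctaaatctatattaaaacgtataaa

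Chaperone calls were few and went in both directions. Of 33 cytosolic chaperones, 1 was higher (against 1.64% of all features) and 2 were lower (against 1.17%), with a median of -0.13. The higher gene was HSP26, a small heat shock protein, with 14.3, 79.3 and 134 CPM at 30 min, against 8.14, 28.1 and 53.6 CPM at 10 min (log2 fold change 1.28 ± 0.38, adjusted p = 0.0314). BTN2, which gathers misfolded proteins, had 60.5, 44 and 21 CPM at 30 min, against 103, 157 and 316 CPM at 10 min (log2 fold change -2.31 ± 0.41, adjusted p = 0.000833), and its groups did not overlap. APJ1, a chaperone of the Hsp40 family, had 31, 36.5 and 19.9 CPM at 30 min, against 53.6, 55.2 and 70.2 CPM at 10 min (log2 fold change -1.04 ± 0.30, adjusted p = 0.0313). The calls of HSP26 and APJ1 were lost without course 2 and without the course term, and that of BTN2 was lost without course 2. HSP30, a heat shock protein of the plasma membrane outside this list, was at a low level with 10.1, 8.16 and 4.29 CPM at 30 min, against 27.1, 13.3 and 32.9 CPM at 10 min (log2 fold change -1.86 ± 0.58, adjusted p = 0.0458). BTN2 had means of 11.7, 39.7, 192, 41.8, 32.2, 44.5, 60.9 and 47.2 CPM at the 8 times from 0 to 240 min.

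Some genes of glycolysis and fermentation rose. Of 30 tested, 5 were higher (against 1.64% of all features) and none was lower, 26 were positive and the median was 0.46. Without the course term 1 was called, and without course 2 the calls numbered 2. TDH1, a glyceraldehyde-3-phosphate dehydrogenase, had 366, 1273 and 2252 CPM at 30 min, against 100.3, 218 and 328 CPM at 10 min (log2 fold change 2.40 ± 0.31, adjusted p = 3.89e-05), and TDH2, its close paralog, had 4553, 9423 and 10140 CPM at 30 min, against 2693, 3626 and 4494 CPM at 10 min (log2 fold change 1.11 ± 0.18, adjusted p = 0.000351). Reads that fit several TDH genes were not counted. GPM2, a phosphoglycerate mutase paralog, had 117, 147 and 173 CPM at 30 min, against 19.9, 41.6 and 60.7 CPM at 10 min (log2 fold change 1.92 ± 0.35, adjusted p = 0.00118). ADH5 had 89.8, 125 and 139.9 CPM at 30 min, against 39.2, 44.6 and 43.3 CPM at 10 min (log2 fold change 1.47 ± 0.20, adjusted p = 8.56e-05), with a narrow spread in each group. The main alcohol dehydrogenase gene ADH1 was not called, with 9654, 19910 and 15700 CPM at 30 min, against 7761, 13770 and 12370 CPM at 10 min (log2 fold change 0.40 ± 0.18, adjusted p = 0.183).

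Glucose transport and storage moved in part. Among 21 hexose transporter and glucose sensing genes, HXT5 and MIG2 were higher (against 1.64% of all features) and HXT3 and HXT4 were lower (against 1.17%). Without the course term none of the 21 was called. MIG2, a repressor that acts in the presence of glucose, had 35.1, 36.1 and 34.7 CPM at 30 min, against 15, 17.9 and 12.5 CPM at 10 min (log2 fold change 1.23 ± 0.29, adjusted p = 0.00751). HXT3 had 204, 376 and 329.9 CPM at 30 min, against 565, 618 and 633 CPM at 10 min (log2 fold change -1.04 ± 0.20, adjusted p = 0.00148), and HXT4 had 50.9, 88.7 and 239.8 CPM at 30 min, against 99.4, 254 and 636 CPM at 10 min (log2 fold change -1.31 ± 0.32, adjusted p = 0.0106), a gene whose level in course 3 was far above that of course 1 at both times. GDB1, the glycogen debranching enzyme, had 112, 228 and 319 CPM at 30 min, against 34.8, 97.5 and 144 CPM at 10 min (log2 fold change 1.34 ± 0.18, adjusted p = 7.27e-05) and was the only call among 20 glycogen and trehalose genes. GCY1 was the only call among 11 glycerol genes. Both calls stand against 1.64% of all features called higher. ACS1, an acetyl-CoA synthetase, had 34.8, 25.3 and 47.7 CPM at 30 min, against 30.9, 11.7 and 12.3 CPM at 10 min (log2 fold change 1.18 ± 0.31, adjusted p = 0.0176). It was the only call among 19 genes of the glyoxylate cycle and gluconeogenesis, against 1.64% of all features called higher. The median of fitted values in that list, 0.61, was the highest of all lists. In courses 1, 2 and 3 its median ratio was 0.17, 0.54 and 0.63. The mean of these, 0.44, was below the 0.59 of the general stress genes. Summed levels of the list overlapped, with 915.7 to 1230 CPM at 30 min and 709 to 1187 CPM at 10 min.

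Genes of ribosome synthesis had mostly negative log2 fold changes, most of them under 2-fold. Among 137 cytosolic ribosomal proteins 134 were negative, with a median of -0.57, while 2 were called lower (against 1.17% of all features) and none higher. At an adjusted p under 0.05 with no fold minimum, 73 of the 137 were lower, against 364 of the 6262 features tested. Among 112 ribosome assembly factors 108 were negative, with a median of -0.47, and 12 were called lower against 1.17% of all features, with 3 calls without the course term and 4 without course 2. The 24 genes of RNA polymerases I and III and the 20 tRNA synthetases were all negative, with medians of -0.57 and -0.47, and none was called. In the courses the median of the assembly factors was -0.86, -0.38 and -0.15, and that of the ribosomal proteins was -0.46, -0.54 and -0.76.

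RPL10 of the large subunit had 884, 1643 and 1184 CPM at 30 min, against 1525, 3712 and 2776 CPM at 10 min (log2 fold change -1.07 ± 0.17, adjusted p = 0.000406), and RPS8B of the small subunit had 641, 401 and 283 CPM at 30 min, against 937, 972 and 741 CPM at 10 min (log2 fold change -1.01 ± 0.26, adjusted p = 0.0149). Both were just past 2-fold, and neither was called under total-count scaling. RPA190, the largest subunit of RNA polymerase I, had 99.5, 186 and 157 CPM at 30 min, against 266, 330.1 and 237 CPM at 10 min (log2 fold change -0.96 ± 0.17, adjusted p = 0.000918), and KRS1, the lysyl-tRNA synthetase, had 427, 661 and 517 CPM at 30 min, against 703, 1017 and 834 CPM at 10 min (log2 fold change -0.67 ± 0.15, adjusted p = 0.00407). These 2 remained under 2-fold.

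SDA1, a factor of large subunit assembly, had 45.4, 56.6 and 40.4 CPM at 30 min, against 123, 177 and 124 CPM at 10 min (log2 fold change -1.56 ± 0.19, adjusted p = 2.72e-05), and DBP2, an RNA helicase, had 42.1, 30.5 and 39.1 CPM at 30 min, against 163, 142 and 131 CPM at 10 min (log2 fold change -1.97 ± 0.29, adjusted p = 0.000185). Both had 30 min libraries well below those of 10 min. NOP1, the RNA methyltransferase fibrillarin, had 174, 311 and 291 CPM at 30 min, against 441, 593 and 479 CPM at 10 min (log2 fold change -1.0 ± 0.15, adjusted p = 0.000239), and NOP13 had 68.8, 122 and 68.2 CPM at 30 min, against 199, 212 and 155 CPM at 10 min (log2 fold change -1.18 ± 0.19, adjusted p = 0.000442). RMT2, which methylates an arginine of a ribosomal protein and was in no list, had 24.1, 42 and 28.6 CPM at 30 min, against 130, 117 and 98.5 CPM at 10 min (log2 fold change -1.89 ± 0.18, adjusted p = 9.92e-07), the second smallest adjusted p of all named genes. The calls of SDA1, DBP2 and RMT2 held under each of the 10 alternative settings.

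The upstream stretches of RMT2 and SDA1 are shown for the motifs GATGAG, the core of the PAC element of Dot6 and Tod6, and AAATTTT, the core of the RRPE element of Stb3. In RMT2 (chrIV:1394675-1394974, minus strand, 400 to 101 bases before the coding start) and SDA1 (chrVII:982169-982468, minus strand, 400 to 101 bases before the coding start) the run AAAATTTT, which holds AAATTTT on both strands, lies close to CTCATC, the reverse complement of GATGAG. The other capitals mark matches to the motifs of Msn2 and Msn4, Rox1, Hap2/3/4/5 and Hap1 spelled out above.
RMT2: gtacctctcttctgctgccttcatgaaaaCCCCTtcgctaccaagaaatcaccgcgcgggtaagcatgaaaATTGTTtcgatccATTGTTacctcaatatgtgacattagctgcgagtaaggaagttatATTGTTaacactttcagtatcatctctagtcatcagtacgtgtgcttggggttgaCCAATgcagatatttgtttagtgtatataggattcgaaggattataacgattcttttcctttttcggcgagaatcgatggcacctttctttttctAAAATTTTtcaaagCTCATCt
SDA1: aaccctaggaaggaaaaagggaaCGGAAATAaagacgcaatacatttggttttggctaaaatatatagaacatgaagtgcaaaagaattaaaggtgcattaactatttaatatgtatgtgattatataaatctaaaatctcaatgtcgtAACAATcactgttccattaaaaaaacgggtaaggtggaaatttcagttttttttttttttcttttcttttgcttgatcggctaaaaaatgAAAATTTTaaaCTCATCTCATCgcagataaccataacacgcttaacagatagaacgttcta

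Some genes of purine and pyrimidine synthesis fell. Of 32 genes in the purine and one-carbon list, 5 were lower (against 1.17% of all features) and none was higher, with a median of -0.33. The calls numbered 2 without the course term and 1 without course 2. GUA1, the GMP synthase, had 102, 149 and 91 CPM at 30 min, against 332, 446 and 277 CPM at 10 min (log2 fold change -1.63 ± 0.20, adjusted p = 2.74e-05). ADE1 had 78.5, 202 and 186 CPM at 30 min, against 204, 416 and 332 CPM at 10 min (log2 fold change -1.10 ± 0.18, adjusted p = 0.000469), and ADE57 was just past 2-fold (log2 fold change -1.0 ± 0.18, adjusted p = 0.00082). URA7, the CTP synthase, had 56.4, 67.2 and 48.9 CPM at 30 min, against 153, 122 and 86 CPM at 10 min (log2 fold change -1.07 ± 0.20, adjusted p = 0.00147). Only the groups of ADE57 overlapped among these 4, and the levels of ADE1 and ADE57 were lowest in course 1 at both times.

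Some genes of iron uptake fell. Of 32 tested, 4 were lower (against 1.17% of all features), none was higher and 27 were negative, with a median of -0.46. The calls numbered 2 without the course term and 3 without course 2. FET3 encodes the multicopper ferroxidase of high-affinity uptake, which uses oxygen. FET3 had 172, 111 and 60.8 CPM at 30 min, against 722, 464 and 394 CPM at 10 min (log2 fold change -2.28 ± 0.33, adjusted p = 0.000174), and its groups did not overlap. SIT1, ARN1 and ENB1 transport iron bound to siderophores. SIT1 had 38.1, 35.2 and 21.2 CPM at 30 min, against 243, 112 and 63.3 CPM at 10 min (log2 fold change -2.02 ± 0.32, adjusted p = 0.000302), ARN1 had 29.8, 36.7 and 21.3 CPM at 30 min, against 79.2, 86.7 and 47.5 CPM at 10 min (log2 fold change -1.27 ± 0.19, adjusted p = 0.000239), and ENB1 had 97.5, 129.7 and 141 CPM at 30 min, against 312, 299.5 and 256 CPM at 10 min (log2 fold change -1.24 ± 0.23, adjusted p = 0.00113). Each of the 3 was lower at 30 min in every course, and their groups did not overlap.

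Of 17 phosphate regulon genes, 3 were lower (against 1.17% of all features) and none was higher, with a median of -0.36. Without the course term, or without course 2, none of the 17 was called. PHO5, the secreted acid phosphatase, had 122, 316 and 167 CPM at 30 min, against 428, 527 and 396 CPM at 10 min (log2 fold change -1.31 ± 0.34, adjusted p = 0.0134). PHO89, a phosphate transporter, had 62.4, 128 and 90.1 CPM at 30 min, against 347, 270.4 and 121 CPM at 10 min (log2 fold change -1.46 ± 0.44, adjusted p = 0.0377), and PHM6 had 41.7, 11.8 and 6.91 CPM at 30 min, against 129, 36.2 and 13.8 CPM at 10 min (log2 fold change -1.46 ± 0.33, adjusted p = 0.0053). The levels of these 2 genes differed several-fold between courses at the same time. PHO89 had means of 876, 393, 246, 93.5, 428, 159, 128 and 149 CPM at the 8 times from 0 to 240 min.

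Some genes of sulfate assimilation and methionine synthesis rose. Of 33 tested, 7 were higher (against 1.64% of all features), none was lower and 28 were positive, with a median of 0.47. Without the course term, or without course 2, none of the 33 was called. MET16, the PAPS reductase, had 56.2, 32.1 and 31.8 CPM at 30 min, against 20, 13 and 16.7 CPM at 10 min (log2 fold change 1.25 ± 0.21, adjusted p = 0.000696), and MET14, the APS kinase, had 77.8, 45.1 and 45.4 CPM at 30 min, against 47.2, 20.9 and 13.9 CPM at 10 min (log2 fold change 1.08 ± 0.27, adjusted p = 0.0115). MET2, the homoserine acetyltransferase, had 58.9, 86.5 and 104 CPM at 30 min, against 32.8, 19.4 and 17.7 CPM at 10 min (log2 fold change 1.84 ± 0.51, adjusted p = 0.0226). The groups of MET16 were apart, while MET14 in course 1 at 10 min was above its 30 min values of courses 2 and 3. MET28, an activator of these genes, had 2.88, 53.3 and 64.7 CPM at 30 min, against 0.568, 30.9 and 33.4 CPM at 10 min (log2 fold change 1.14 ± 0.29, adjusted p = 0.012), near 0 in course 1 at both times.

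Other lists of amino acid metabolism held calls on the side of the rises. BAT2, the cytosolic branched-chain transaminase, had 651, 1164 and 893 CPM at 30 min, against 229, 468 and 414 CPM at 10 min (log2 fold change 1.31 ± 0.17, adjusted p = 5.95e-05), and ARO10, a decarboxylase of the Ehrlich pathway, had 114, 230.4 and 257 CPM at 30 min, against 33.7, 37.3 and 107 CPM at 10 min (log2 fold change 1.84 ± 0.46, adjusted p = 0.0114). BAT2, ARO10 and ADH5 were the calls among 15 Ehrlich pathway genes, against 1.64% of all features called higher, and 1 was called without the course term. Of 49 genes of Gcn4-type amino acid synthesis, BAT2 was the only call, against 1.64% of all features called higher, and the median was -0.18. BIO2, the biotin synthase, had 176, 142 and 85.7 CPM at 30 min, against 76.4, 46.7 and 39.2 CPM at 10 min (log2 fold change 1.31 ± 0.29, adjusted p = 0.00439). It was the only call among 41 genes of NAD and B vitamins, against 1.64% of all features called higher. PRM7, which is induced by pheromone, had 0.822, 5.25 and 20.4 CPM at 30 min, against 22.2, 18.2 and 30.2 CPM at 10 min (log2 fold change -1.71 ± 0.54, adjusted p = 0.0467), and its groups overlapped.

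The remaining lists held no call. The member with the smallest p in each had a log2 fold change of 0.64 ± 0.15 for PRE3 of 34 proteasome genes, 0.95 ± 0.20 for EUG1 of 19 genes of ER folding and fumarate reductases, and 0.84 ± 0.19 for ATG22 of 33 autophagy genes. In the same way MUP1, a methionine permease, had 0.69 ± 0.17 among 25 amino acid permeases, and GDH2 had 0.86 ± 0.18 among 21 genes of arginine and nitrogen catabolism. RNR1, of ribonucleotide reductase, had -0.76 ± 0.14, and the histone gene HTB2 had -0.64 ± 0.14. LAC1, a ceramide synthase, had 0.73 ± 0.14, OPI3, of phosphatidylcholine synthesis, had 0.89 ± 0.23, and TPO4, a polyamine transporter, had -0.86 ± 0.23. These 10 had adjusted p under 0.05 and stayed under 2-fold.

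In 3 further lists with no call the smallest p also missed the threshold. SCH9, a growth kinase among 30 signalling regulators, had -0.35 ± 0.14 (adjusted p = 0.138). CLN3, a G1 cyclin in the list of 32 G2/M and M/G1 genes, had -0.60 ± 0.21 (adjusted p = 0.0821). SPS19, of 21 peroxisome genes, had 1.42 ± 0.48 (adjusted p = 0.063). The 37 genes of G1 and S phase, which include HTB2, had a median of -0.34 with 31 negative.

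No marker of another cell type was called. None of 7 a-cell genes, 3 tested alpha-cell genes and 18 meiosis and sporulation genes was called. AGA2 had 33.6, 39.4 and 62.3 CPM at 30 min, against 31.4, 31.2 and 32.1 CPM at 10 min (log2 fold change 0.50 ± 0.24, adjusted p = 0.236), as an a-cell gene in this MATa strain. The alpha-cell genes summed to 33.3 to 42.6 CPM at 30 min and 34.7 to 44.2 CPM at 10 min. STE3, the receptor of alpha cells, had 0.89 ± 0.34 (adjusted p = 0.115), and SPS4, a sporulation gene, had -1.78 ± 0.57 (adjusted p = 0.0521).

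**Figure D3:**
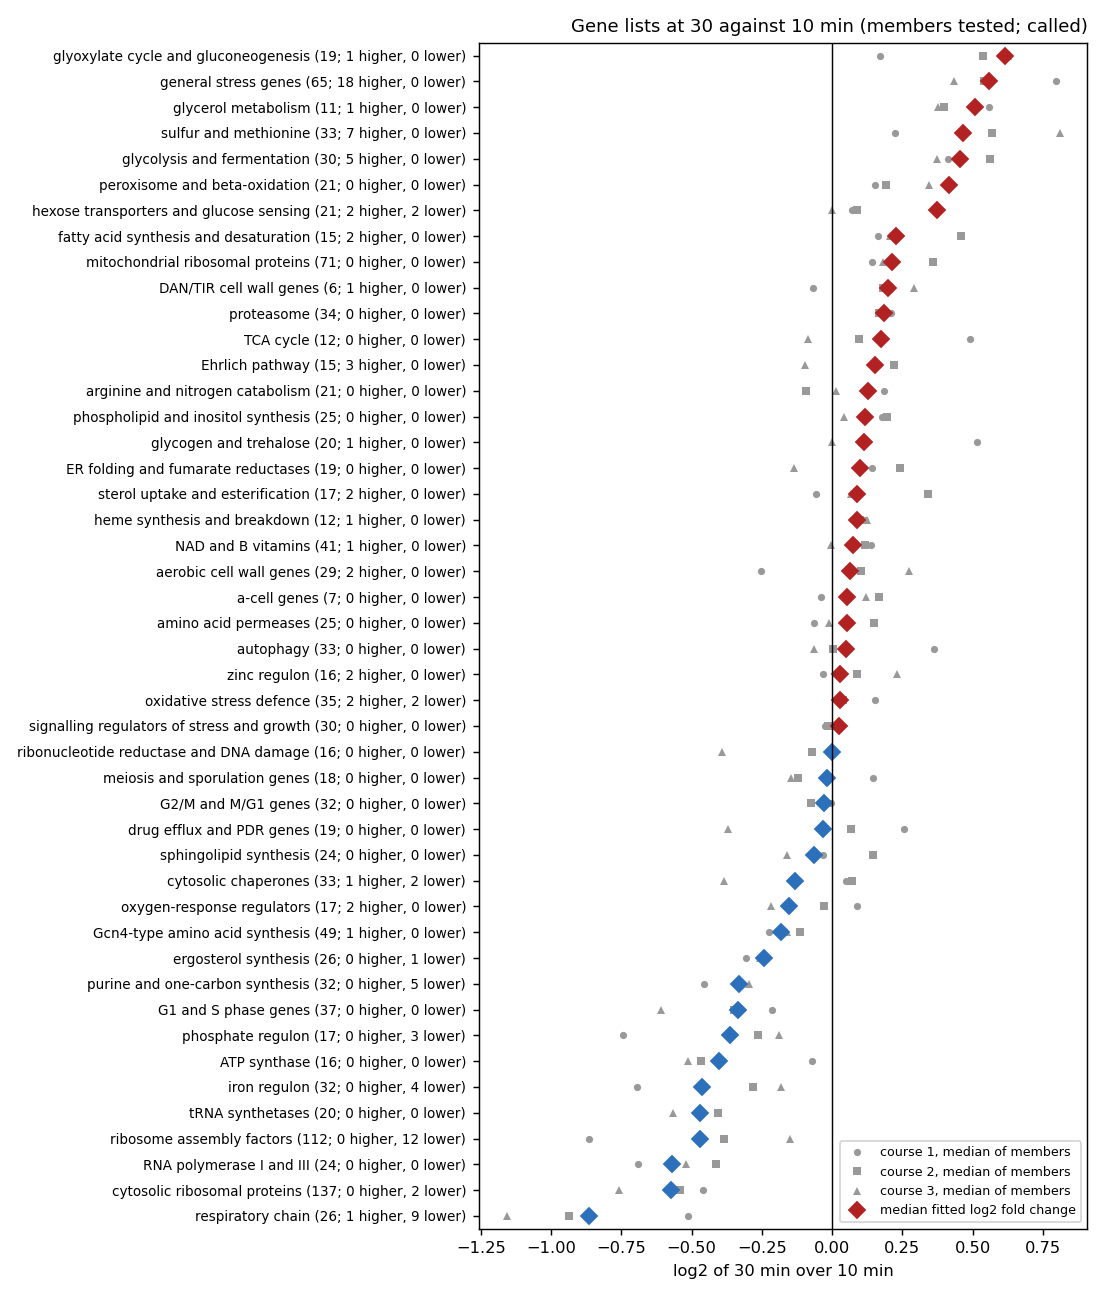
Median log2 of 30 over 10 min for the 46 gene lists with at least 6 tested members, in red above 0 and in blue below 0 (fitted values), with the median in each course in grey and, in brackets, the members tested and called. The respiratory chain has the lowest median at -0.86, the ribosomal proteins lie at -0.57, and the glyoxylate and stress lists lie at 0.61 and 0.56.

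The step was then compared with its neighbours in the same fit. The change from 10 to 30 min differed from that of 5 to 10 min by at least 1 on the log2 scale for 25 features (0.399% of those tested), 12 with a positive and 13 with a negative difference. The 2 steps share the 10 min libraries, and they last different times, which was not corrected for. This count was 0 without course 2 and 0 without the course term, 9 without course 3, 89 without course 1 and 47 with DESeq2.

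The positive differences included IZH4 (4.55 ± 0.92, adjusted p = 0.0283), IZH1 (3.20 ± 0.66, adjusted p = 0.0314), MIG2 (3.01 ± 0.53, adjusted p = 0.0113), FAA4 (2.53 ± 0.50, adjusted p = 0.0271), TIR1 (2.39 ± 0.51, adjusted p = 0.0364), HEM13 (1.97 ± 0.37, adjusted p = 0.017) and MGA2 (1.94 ± 0.41, adjusted p = 0.0343). IZH4 had means of 133, 41.2, 20.4, 234, 388, 898, 1083 and 855 CPM at the 8 times from 0 to 240 min, so that its lowest mean was at 10 min. In course 1 IZH4 was lowest at 0 min, with 26.3, 64.3 and 33.4 CPM at 0, 5 and 10 min. FAA4 had means of 806, 384, 195, 636, 841, 1184, 1063 and 1167 CPM at the 8 times and was lowest at 10 min in every course. HEM13 had means of 80.5, 83.8, 79.3, 274, 569, 1187, 1597 and 1871 CPM, and TIR1 had means of 39.6, 60.9, 50.4, 212, 1253, 4343, 5541 and 6981 CPM, at the same times. TOD6, a repressor of ribosome synthesis genes that was not called in the step itself, also had a positive difference (2.24 ± 0.42, adjusted p = 0.017). TOD6 was chosen after its values were seen.

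The negative differences included BTN2 (-4.63 ± 0.65, adjusted p = 0.0011), YHB1 (-2.60 ± 0.34, adjusted p = 0.000669), COX12 (-1.53 ± 0.32, adjusted p = 0.0343) and ATP7 (-1.33 ± 0.25, adjusted p = 0.017). The chaperone genes MDJ1 (-1.51 ± 0.34, adjusted p = 0.048) and YDJ1 (-1.36 ± 0.30, adjusted p = 0.0411) and FES1 (-1.89 ± 0.28, adjusted p = 0.00135), a nucleotide exchange factor of Hsp70, were in this group as well and were chosen after their values were seen. YHB1 had means of 2302, 1904, 1209, 126, 77.4, 110.4, 145 and 117 CPM at the 8 times from 0 to 240 min.

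By the same rule, the change from 10 to 30 min differed from that of 30 to 60 min for more features. There were 167 with a positive difference (2.67% of those tested) and 334 with a negative one (5.33%). Both steps use the 30 min libraries, so that a deviation of these libraries from the true level enters the 2 steps with opposite sign. Without course 2 the count was 32 in place of 501, without the course term it was 52, and without course 3 it was 281. How many members of each list below kept their difference in these settings was not counted.

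Among the 112 ribosome assembly factors 82 had a negative difference, against 5.33% of all features, and none a positive one. Their median change was -0.47 from 10 to 30 min and 0.96 from 30 to 60 min. RMT2 had means of 392, 229.5, 115, 31.6, 114, 147, 119.5 and 124 CPM at the 8 times from 0 to 240 min, with its lowest level at 30 min, and its difference was -3.76 ± 0.32, adjusted p = 4.4e-07. GUA1 (-3.17 ± 0.37, adjusted p = 1.85e-05) and SDA1 (-3.28 ± 0.34, adjusted p = 5.42e-06) had the same course. Of 24 genes of RNA polymerases I and III 14 had a negative difference, and of 137 ribosomal proteins 28 did, against 5.33% of all features.

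Among the 65 general stress genes 29 had a positive difference, against 2.67% of all features, and none a negative one. Their median change was 0.56 from 10 to 30 min and -0.83 from 30 to 60 min. HSP12 had means of 14.6, 22.5, 154, 1298, 830.1, 167, 162 and 99.5 CPM at the 8 times from 0 to 240 min, with its highest level at 30 min (3.80 ± 0.77, adjusted p = 0.00314). TDH1 (4.09 ± 0.48, adjusted p = 2.34e-05) and TDH2 (2.96 ± 0.29, adjusted p = 2.21e-06) also had their highest mean at 30 min. Of the 30 genes of glycolysis and fermentation 10 had a positive difference, against 2.67% of all features.

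The means of genes of oxygen use were followed to later times. CYC1 had means of 145, 127, 74.6, 9.11, 5.27, 7.96, 10.9 and 2.33 CPM at the 8 times from 0 to 240 min. ANB1 had means of 4.51, 3.4, 4.1, 15.9, 166, 619.8, 782 and 731 CPM, and HES1 had means of 9, 7.46, 6.54, 23.2, 142, 614, 999 and 1235 CPM, at the same times, so that most of the rise of both genes came after 30 min. The respiratory chain had a median change of -0.86 from 10 to 30 min and -0.70 from 30 to 60 min. Of its 26 genes 2 had a positive difference between the steps (against 2.67% of all features) and 1 a negative one (against 5.33%). The iron list had a median change of -0.46 and -0.24 in the 2 steps.

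**Figure D4:**
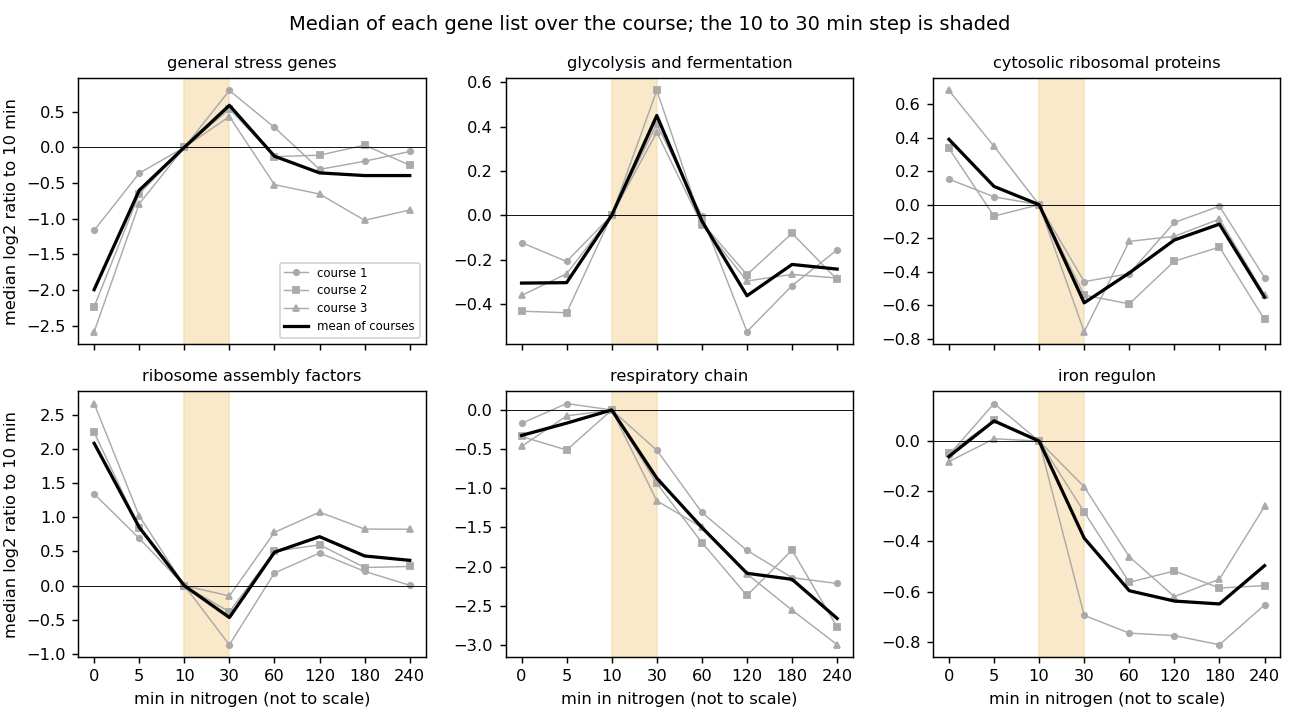
Median log2 ratio of each list to the 10 min library of the same course, for 6 gene lists at 0 to 240 min of nitrogen, with courses in grey, their mean in black and the step from 10 to 30 min shaded. Stress and glycolysis genes are highest at 30 min, ribosome assembly factors are lowest there, and the respiratory chain and iron lists keep falling up to 60 min or later.

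The 500 bases before the coding start were searched for short motifs on both strands in 5722 tested protein-coding genes. Among them 100 were called higher and 73 lower. AGGGG was found in 61.0% of the higher genes, in 42.5% of the lower genes and in 34.4% of all tested. GATGAG was found in 26.0% of the higher, 49.3% of the lower and 28.0% of all, and AAATTTT in 18.0%, 54.8% and 34.8%. CCAAT was less frequent in the higher genes, with 43.0%, 54.8% and 62.9%. These shares are descriptions, and a match is not a bound site. Of the 103 features called higher, 10 belong to Ty retrotransposons, whose copies are nearly identical. Their upstream windows may repeat the same sequence, and shares without them were not computed.

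The shares of the other motifs follow. In the higher genes, the lower genes and all tested, ATTGTT (Rox1) was in 55.0%, 47.9% and 49.1%, and CGGNNNTA (Hap1) in 42.0%, 39.7% and 33.7%. TCGTTTA was in 13.0%, 4.11% and 8.58%, and TCGTATA, the second form of the sterol response motif, in 8.0%, 4.11% and 7.01%. GCACCC (Aft1) was in 14.0%, 11% and 7.44%, and CACGTG (Cbf1 and Pho4) in 12%, 11% and 6.24%. TTCNNGAA (Hsf1) was in 21.0%, 20.5% and 21.5%, and TGACTC (Gcn4) in 12%, 13.7% and 13.0%. ACGCGT (MBF), ACACCC (Rap1), TCCGCGG (Pdr1 and Pdr3) and GGTGGCA (Rpn4) were in 2.0%, 8.0%, 3.0% and 3.0% of the higher genes and in 5.54%, 10.9%, 1.96% and 4.53% of all tested.

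**Figure D5:**
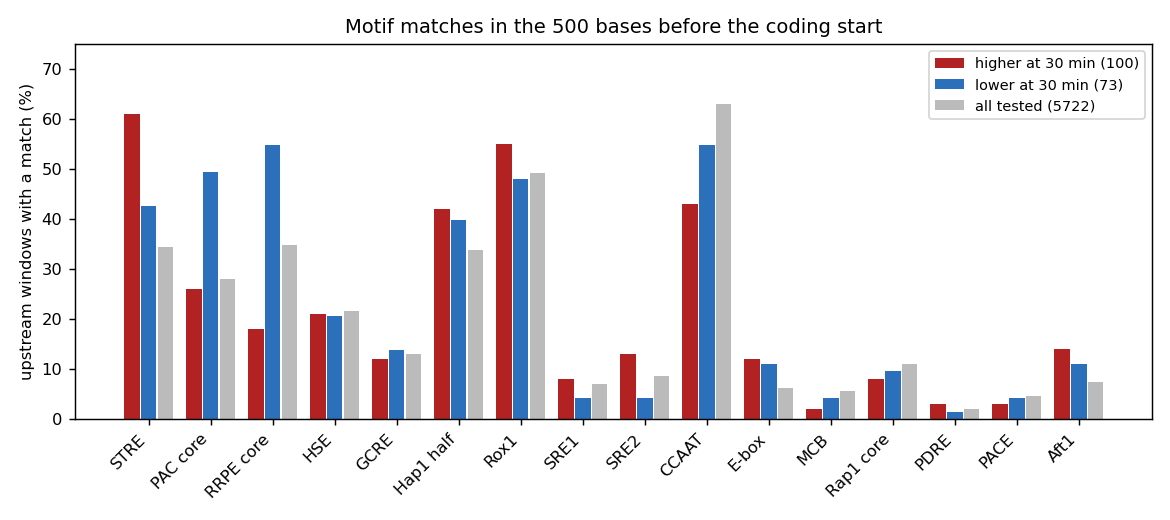
Share of upstream windows of 500 bases that hold each motif on either strand, for genes higher at 30 min (red), genes lower at 30 min (blue) and all tested genes (grey). STRE matches are most frequent in the higher genes at 61.0%, and PAC and RRPE core matches are most frequent in the lower genes at 49.3% and 54.8%.

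Features without a standard name made 20 of the 103 higher and 5 of the 73 lower calls. Of these, 10 of the higher calls were annotated as Gag or Gag-Pol products of Ty retrotransposons, a group chosen after its values were seen. Of 32 tested features whose annotated product holds the letters gag, 28 were positive, with a median log2 fold change of 1.14 and none lower. Their summed level was 357, 928 and 1045 CPM at 30 min, against 241, 482 and 465 CPM at 10 min. The 32 include GAG1, a gene with a standard name that is not a Ty feature and was not called. GAG1 alone had 42.02, 18.17 and 19.54 CPM at 30 min, against 27.65, 16.51 and 17.74 CPM at 10 min, and these values are part of the sums. Copies of Ty elements are nearly identical and overlapping Gag and Gag-Pol annotations share bases, so these features hold only the reads that could be placed, while the alignments that fit several places went up in the same libraries. Their part in the result was not tested.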

How the data were processed

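Libraries of 8 times in 3 courses gave 24 files. The authors prepared polyadenylated RNA, mapped reads with TopHat2 to genome build R64 and counted reads per feature with HTSeq, with versions not given in the sources used here, and deposited raw counts for 7140 features, of which 6048 matched RefSeq and 5281 had a standard name. HTSeq summary lines, present for courses 2 and 3, were left out.

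The 24 libraries were fitted together with edgeR 4.0.16 (R 4.3.3), TMM factors, filterByExpr by time, and time and course as factors, with 14 residual degrees of freedom, and the 30 min minus 10 min contrast was tested by the quasi-likelihood F-test with Benjamini-Hochberg adjustment over 6262 features. Course is a block because the numbers were taken to pair the samples: deviations from the group mean correlated at 0.892, 0.693 and 0.637 between 30 and 10 min libraries of courses 1, 2 and 3. Between courses 2 and 3 they also correlated, at 0.62 and 0.588, and with course 1 against another course at -0.694 to -0.791, so that most of the pairing separates course 1 from the others. The biological coefficient of variation was 0.196. Log2 ratios within a course or library used 0.5 CPM as pseudocount. The steps were tested on simulated data.

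The comparison, the gene lists, the motifs and the rule for named genes were chosen with earlier results of these data known. The rule names the 12 largest rises and falls, up to 4 called genes of each list (or the gene with the smallest p), and all regulators, DAN/TIR genes and isoform pairs. Sequences are from RefSeq, build R64. Stretches of 300 bases from the upstream 500 were printed for RMT2, HEM13, SDA1, YHB1 and TIR1, each among the 2 called named genes with the smallest adjusted p for a motif, and for HSP12, ANB1 and CYC1, chosen after their values were seen. Counting error is only part of the spread between courses. The alternatives were no course term, the 6 libraries alone, DESeq2 1.42.0, scaling by RLE factors or by total counts, all features unfiltered, an adjusted p with no fold minimum, and each course left out.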

Additional observations from a re-analysis of the deposited data

How the results depend on the processing

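In the fit with course as a block, 176 features were called (103 higher, 73 lower), 25 and 501 differed from the earlier and later step, and 91 list members were called. Without the replicate block these counts were 52 (28 higher, 24 lower), 0, 52 and 26. With an adjusted p alone and no fold minimum, 606 features (242 higher, 364 lower) and 311 list members were called. With DESeq2, 47 features differed from the earlier step. When each course was left out in turn, the calls ranged from 45 to 198, the higher calls from 19 to 118, the lower calls from 26 to 80, the 2 step differences from 0 to 89 and from 32 to 521, and the list members from 20 to 100. The lowest values came without course 2, and the cause was not tested. The fit to the 6 libraries, DESeq2, the 2 other scalings and the unfiltered table gave 169 to 191 calls, of which 160 to 176 were among the 176.

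Of the 74 named genes that were called, 23 stayed called without course 2, 27 without the course term, 64 with total-count scaling and 69 in the 6 libraries alone, and 15 did so under all 10 alternatives. The alternative with no fold minimum keeps every call by construction. No named gene that was called, in the main or an alternative setting, changed direction. The biological coefficient of variation of 0.196 and 3 libraries for each time limit the precision, most of all for genes at a few CPM.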

Other observations

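Further called genes, chosen after their values were seen, fell in nucleotide salvage and synthesis. HPT1, the hypoxanthine phosphoribosyltransferase, averaged 104 ± 43.7 CPM at 30 min and 257 ± 46.6 CPM at 10 min (log2 fold change -1.40 ± 0.21), AAH1, the adenine deaminase, averaged 18.8 ± 5.68 CPM at 30 min and 51.8 ± 34.3 CPM at 10 min (log2 fold change -1.40 ± 0.28), and IMD4, an IMP dehydrogenase, averaged 219.9 ± 25.3 CPM at 30 min and 492 ± 144 CPM at 10 min (log2 fold change -1.15 ± 0.22). IMD4 overlaps the small nucleolar RNA gene SNR54 by 86 bases, and the part of these bases in its count was not tested. REA1, the ATPase midasin of ribosome assembly, averaged 116 ± 27.9 CPM at 30 min and 302 ± 46.3 CPM at 10 min (log2 fold change -1.39 ± 0.20, adjusted p = 0.000185), and FPR4, a prolyl isomerase of chromatin, averaged 246 ± 32.1 CPM at 30 min and 626 ± 105 CPM at 10 min (log2 fold change -1.34 ± 0.16, adjusted p = 2.74e-05). RKI1, of the pentose phosphate pathway, averaged 13.1 ± 2.34 CPM at 30 min and 37 ± 20.9 CPM at 10 min (log2 fold change -1.41 ± 0.23), in the direction opposite to TKL2 and NQM1. Errors of means are SD with n = 3 each.

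Among the rises, YMR315W, which has no standard name, had 182, 242 and 263 CPM at 30 min, against 80.5, 104 and 114 CPM at 10 min (log2 fold change 1.20 ± 0.13, adjusted p = 6.31e-06), with groups that did not overlap. AMS1, the vacuolar alpha-mannosidase, averaged 70.1 ± 26.1 CPM at 30 min and 19.2 ± 5.15 CPM at 10 min (log2 fold change 1.85 ± 0.30, adjusted p = 0.000358). GSC2, a glucan synthase of the cell wall, averaged 280.3 ± 148 CPM at 30 min and 104 ± 34.2 CPM at 10 min (log2 fold change 1.34 ± 0.20, adjusted p = 0.000214), with overlapping groups. UGA1, the GABA transaminase, averaged 54.5 ± 6.93 CPM at 30 min and 18.4 ± 5.9 CPM at 10 min (log2 fold change 1.60 ± 0.29, adjusted p = 0.000991). YBR012C, which was not matched to the annotation used here, had 93.7, 75.2 and 49.3 CPM at 30 min, against 12.4, 12.8 and 8.64 CPM at 10 min (log2 fold change 2.69 ± 0.27, adjusted p = 1.94e-06).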
